A study of Mus musculus with 23 samples.

Results

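Genes of immune checkpoints, 10 in all, were followed across melanoma tumors of mice: the receptors Pdcd1, Ctla4, Lag3, Havcr2 and Tigit, the ligands Cd274, Pdcd1lg2, Cd80 and Cd86, and the enzyme gene Ido1. They were picked by name from the count table, so that 10 of its 56748 genes are described here. RNA of 23 tumors was sequenced by a method that reads the 3′ end of polyadenylated RNA, which gave gene counts of 2861578 to 6702374 reads a tumor. Every tumor grew under the skin of a DBA/2J mouse aged 6 to 8 weeks from implanted B16-F1 cells, a melanoma line derived from the C57BL/6 strain, so that tumor and host differed in strain in all groups, controls included.

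The groups differed in drug and in route. Pentoxifylline (PTX), a methylxanthine, was given at 60 mg/kg, norcantharidin (NCTD), a demethylated analog of cantharidin, at 3 mg/kg, and MIX was the combination of both at these doses. By the intraperitoneal (IP) route, CTRL_IP received saline, and CTRL_IP, PTX_IP, NCTD_IP and MIX_IP each held 2 tumors. By the intratumoral (IT) route, CTRL_IT received DMSO, and CTRL_IT, NCTD_IT and MIX_IT each held 4 tumors while PTX_IT held 3. The control vehicle changed together with the route, and the labels' batch field holds only the route, so that these cannot be told apart.

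Immune checkpoints are receptor and ligand pairs that restrain T cells. PD-1 (Pdcd1) on activated T cells binds PD-L1 (Cd274) and PD-L2 (Pdcd1lg2), which tumor cells and myeloid cells can carry and which interferon gamma induces, while CTLA-4 (Ctla4) competes with the activating receptor CD28 for CD80 and CD86 on antigen-presenting cells. LAG-3 binds MHC class II, TIM-3 (Havcr2) binds galectin-9 among other ligands and is also found on myeloid cells, TIGIT binds the poliovirus receptor and nectins, and IDO1 breaks down tryptophan, which T cells need. B16 tumors are known as poorly infiltrated by T cells and as carrying PD-L1 mainly after exposure to interferon.

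In these tumors no checkpoint gene passed the test in any of 13 comparisons of treatments and routes, while the same genes varied widely between tumors of the same group. By edgeR's quasi-likelihood test, 0 of the members tested had an adjusted p below 0.05, only 3 results had an unadjusted p below 0.05, and DESeq2 also called 0, with 4 at an unadjusted p below 0.05. The summed level of the 10 genes ranged from 2.57 CPM (read counts scaled to the library size after TMM normalization) in CTRL_IT replicate 9 to 133 CPM in NCTD_IT replicate 20, a 51.7-fold range. It was high and low within each IT group, from 2.57 to 74.4 CPM in CTRL_IT, from 15.8 to 92.3 CPM in PTX_IT, from 17.4 to 133 CPM in NCTD_IT and from 12.2 to 50.5 CPM in MIX_IT. In whole tumors, fewer cells of a type and less RNA per cell cannot be told apart.

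Some facts of the libraries bear on these comparisons. The 7 melanocyte and melanoma markers summed to between 15172 and 37030 CPM, so that all tumors showed the labelled cell type, whereas the 5 B cell markers reached at most 2.36 CPM. Xist, which is transcribed from the inactive X chromosome, was between 5.13 and 13.4 CPM in the 4 NCTD_IT tumors and between 1.30 and 11.4 CPM in the 3 PTX_IT tumors, but at most 0.572 CPM in CTRL_IT and 0 in MIX_IT. Ddx3y, from the Y chromosome, was at most 0.285 CPM in NCTD_IT and PTX_IT and at least 1.03 CPM in CTRL_IT and MIX_IT. Of the IP tumors only CTRL_IP replicate 2 had reads of Xist (8.29 CPM), with Ddx3y at 0.452 CPM. Hosts of both sexes are thus mixed in CTRL_IP and unevenly spread over the routes. Although the series describes the groups as matched for sex, the sex of the host and the drug cannot be told apart in some comparisons. These are NCTD_IT or PTX_IT against CTRL_IT or MIX_IT, and the effect of MIX_IT minus those of its drugs. Malat1, a nuclear RNA, was between 276 and 672 CPM in NCTD_IT and between 155 and 493 CPM in MIX_IT, against 76.8 to 97.5 CPM in CTRL_IT. In PTX_IT it was at 194, 418 and 74.8 CPM in replicates 13, 15 and 16. The mitochondrial share of the counts was 2.47% to 6.32% in NCTD_IT, 2.97% to 3.86% in PTX_IT and 3.57% to 5.73% in MIX_IT, against 2.42% to 2.68% in CTRL_IT. The part of these signs of RNA or tissue quality in the values below was not tested. Each library is labelled as its own tumor, and p-values measure the spread between these tumors.

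To rank the genes, their levels were divided by gene length and are given as CPM per kb. Cd274 had the highest median over the 23 tumors, 4.13 CPM per kb, and was above Havcr2 in 20 of 23 tumors. Havcr2 (1.94) and Cd86 (1.70) followed, with Havcr2 higher in 16 of 23 tumors, and Pdcd1 (0.918), Ctla4 (0.918) and Pdcd1lg2 (0.877) came next. Several neighbors in this order were not separated beyond their spread, since Cd86 was above Pdcd1 in 11 of 23 tumors, Ctla4 above Pdcd1lg2 in 11, Pdcd1lg2 above Ido1 in 13 and Ido1 above Cd80 in 12. Pdcd1 was above Ctla4 in 16 tumors and below it or equal in the others. Ido1 (0.284) and Cd80 (0.230) were lower still, and Lag3 and Tigit had a median of 0. Because a 3′ library does not count a long gene more often, the order by plain CPM is also given: there Cd86 (6.24 CPM) stood above Havcr2 (5.27), Ctla4 (2.14) above Pdcd1 (1.78) and Cd80 (0.854) above Ido1 (0.518).

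**Figure D1:**
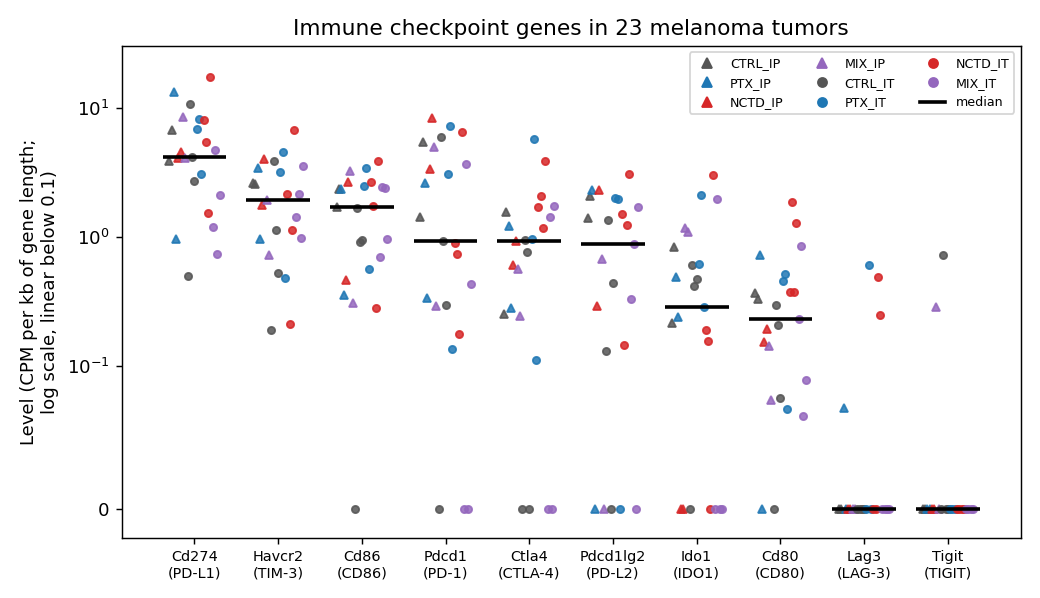
Level of each checkpoint gene in CPM per kb of gene length on a log scale that is linear below 0.1, with 1 point per tumor (triangles for IP, circles for IT, colors for the drug) and the median of 23 tumors as a black bar. Cd274 has the highest median, 4.13, and Lag3 and Tigit lie at 0 in 19 and 21 tumors.

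Among the receptors, Pdcd1 was high in 1 tumor and low in the others in CTRL_IT, NCTD_IT and MIX_IT. In CTRL_IT it was at 0, 11.4, 1.78 and 0.572 CPM in replicates 9 to 12, and in NCTD_IT at 1.72, 1.42, 0.342 and 12.6 CPM in replicates 17 to 20. In MIX_IT it was at 0, 7.04, 0 and 0.831 CPM in replicates 21 to 24, and in PTX_IT at 5.88, 14.0 and 0.259 CPM in replicates 13, 15 and 16. Every IT group thus held both a high and a low tumor, and no pair of IT groups was separated. Against CTRL_IT the log2 fold changes of Pdcd1 ran from -0.78 in MIX_IT to 0.92 in PTX_IT, and MIX_IT against PTX_IT was at -1.70 (SE 1.47, adjusted p = 0.982).

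Ctla4, which takes CD80 and CD86 away from CD28, showed the clearest separation of a receptor. It was at 0, 2.19, 1.78 and 0 CPM in CTRL_IT and at 3.95, 4.84, 2.74 and 8.90 CPM in NCTD_IT. All 4 NCTD_IT tumors were above all 4 CTRL_IT tumors, and 16.9% of all genes tested in that comparison showed groups that did not overlap, in one direction or the other. On the log2 scale the fold change was 2.32 (SE 1.26), with an adjusted p of 0.294 by edgeR that ran from 0.0692 to 0.890 over the alternatives. In PTX_IT, Ctla4 was at 2.24, 13.3 and 0.259 CPM, so that the log2 fold change against CTRL_IT of 2.32 (SE 1.32, adjusted p = 0.800) rested on replicate 15, without which it was 0.27. In MIX_IT it was at 0 in replicates 21 and 23 and at 3.28 and 3.99 CPM in replicates 22 and 24, with log2 fold changes of -1.46 (SE 1.17, adjusted p = 0.834) against NCTD_IT and -1.47 (SE 1.25, adjusted p = 0.982) against PTX_IT. Without PTX_IT replicate 15 the value against PTX_IT was 0.58.

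Havcr2, which marks exhausted T cells and is also a myeloid gene, was counted in every tumor. It was at 0.513, 10.5, 3.04 and 1.43 CPM in CTRL_IT and at 5.84, 0.570, 3.08 and 18.3 CPM in NCTD_IT. The MIX_IT tumors were closer together, at 3.84, 5.79, 2.64 and 9.64 CPM, and the PTX_IT tumors were at 8.69, 12.4 and 1.30 CPM. The groups overlapped, and the log2 fold changes against CTRL_IT ran from 0.48 in MIX_IT to 0.90 in PTX_IT.

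Lag3 and Tigit were close to the limit of these libraries. Lag3 had 10 reads in all: 1 in PTX_IP replicate 3, 4 in PTX_IT replicate 15, 3 in NCTD_IT replicate 19 and 2 in NCTD_IT replicate 20. Tigit had 4 reads, 3 of them in CTRL_IT replicate 10 and 1 in MIX_IP replicate 7. A count of 0 allows a level of up to 3 counts, which was between 0.448 and 1.03 CPM in these tumors and covers counting error only. In the IT groups an exact two-sided permutation test against CTRL_IT gave p = 0.429 for Lag3 in NCTD_IT and in PTX_IT, and p = 1 for Lag3 in MIX_IT and for Tigit in all IT groups. With so few tumors above 0 reads, no p below 0.429 was possible in any of these tests. They therefore cannot decide whether the levels differed.

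Cd274 encodes PD-L1 and lies on chromosome 19 of GRCm39 (chr19:29344855-29365495, plus strand). Its promoter is shown because Cd274 had the most reads of the members and the members moved together between tumors, and it was searched for sites of the interferon pathway, which is known to induce this gene. The sequence is that of RefSeq, covers 250 bases before and 50 after the RefSeq start, and matched GRCm39 exactly once, on the plus strand at chr19:29344588-29344887. The capitals mark the only match to the IRF motif GAAANNGAA, searched on both strands, which here lies on the minus strand and starts 76 bases before the RefSeq start.
Cd274 promoter: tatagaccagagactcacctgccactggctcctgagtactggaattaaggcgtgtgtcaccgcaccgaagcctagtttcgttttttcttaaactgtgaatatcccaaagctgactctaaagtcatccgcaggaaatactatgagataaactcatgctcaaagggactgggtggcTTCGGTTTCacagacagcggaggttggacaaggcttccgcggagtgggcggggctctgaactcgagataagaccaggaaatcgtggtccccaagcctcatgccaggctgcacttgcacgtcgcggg
RefSeq promoters of this length were at hand for 7 of the 10 genes, of which Cd274 and Ctla4 held an IRF match and none held the GAS motif TTCNNNGAA. Of all 32851 such promoters, 8.56% held the IRF motif and 8.30% the GAS motif, and a match is a description of the letters, not a site shown to be bound.

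Cd274 was counted in all 23 tumors. In CTRL_IT it was at 1.80, 38.6, 14.96 and 9.72 CPM, in PTX_IT at 24.7, 29.5 and 11.1 CPM, in NCTD_IT at 28.9, 19.7, 5.47 and 62.1 CPM, and in MIX_IT at 4.27, 17.05, 2.64 and 7.65 CPM. In MIX_IT, all tumors but replicate 22 were below the lowest PTX_IT tumor, but MIX_IT overlapped each of the other IT groups. The mean was 7.90 ± 6.44 CPM (SD, n = 4) in MIX_IT, 29.0 ± 24.04 in NCTD_IT (n = 4), 21.8 ± 9.51 in PTX_IT (n = 3) and 16.3 ± 15.8 in CTRL_IT (n = 4).

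MIX_IT against NCTD_IT gave the lowest p of Cd274. Its log2 fold change was -1.88 (SE 0.76, 95% interval -3.48 to -0.28), with an unadjusted p below 0.05 and an adjusted p of 0.803 by edgeR, and DESeq2 gave -1.91 with an adjusted p of 1. Against PTX_IT it was -1.43 (SE 0.80, adjusted p = 0.982) and against CTRL_IT -1.03 (SE 0.75, adjusted p = 0.598). Without a filter on low counts the adjusted p of MIX_IT against NCTD_IT was 7.75e-06, because the fit of 26878 genes then took an infinite prior and set the spread of every gene to the trend. The quasi-dispersion used for Cd274 was then 0.748, where its own was 5.73, against 4.06 used with the filter. Over the other alternatives the adjusted p was between 0.569 and 1. The unadjusted p was no longer below 0.05 without NCTD_IT replicate 20 (log2 fold change -1.22), MIX_IT replicate 21 (-1.68) or MIX_IT replicate 23 (-1.61). Without the filter MIX_IT against PTX_IT also passed, with an adjusted p of 0.0133, while the other alternatives gave 0.653 to 1.

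Pdcd1lg2 encodes PD-L2, lies downstream of Cd274 on the same chromosome and had fewer reads. In CTRL_IT it was at 0.257, 2.63, 0 and 0.858 CPM, and in NCTD_IT at 2.92, 0.285, 2.39 and 6.02 CPM. In PTX_IT it was at 3.92, 3.81 and 0 CPM, and in MIX_IT at 0.640, 1.72, 0 and 3.33 CPM. The groups overlapped, and the log2 fold change against CTRL_IT was 1.60 (SE 1.18, adjusted p = 0.453) in NCTD_IT and 1.39 (SE 1.26, adjusted p = 0.861) in PTX_IT. MIX_IT against NCTD_IT was at -1.01 (SE 1.12, adjusted p = 0.879).

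Cd80 had the lowest p of a checkpoint gene in a comparison with a control. It encodes a ligand that both CTLA-4 and CD28 bind, and its counts were low, at most 24 reads in a tumor. In CTRL_IT it was at 0, 1.097, 0.761 and 0.286 CPM, and in NCTD_IT at 1.38, 6.84, 1.37 and 4.71 CPM, so that all 4 NCTD_IT tumors were above all 4 CTRL_IT tumors. By edgeR the log2 fold change was 2.66 (SE 1.00, 95% interval 0.55 to 4.77), with an unadjusted p below 0.05 and an adjusted p of 0.140, and the adjusted p was 0.0789 by DESeq2 and between 0.0789 and 0.894 over all alternatives. In this comparison 21.6% of all genes had an unadjusted p below 0.05 and 1.37% were called. The tumor with the most Cd80, NCTD_IT replicate 18, was also the one with the most neutrophil RNA, since the 6 neutrophil markers summed to 1060 CPM there against 17.5 to 45.8 CPM in the other NCTD_IT tumors and 2.29 to 8.78 CPM in CTRL_IT. Other cell types stood out there too, with 240 CPM of skeletal muscle and 283 CPM of adipocyte markers, the most in NCTD_IT. The 10 dendritic cell markers summed to 41.9 CPM there, 14.4 to 45.8 CPM over NCTD_IT and 8.01 to 26.3 CPM in CTRL_IT. The part of these cells in the Cd80 result was not tested. S100a8 and S100a9 were called higher in NCTD_IT (log2 fold changes 5.60 and 6.63, adjusted p = 0.0363 for both by edgeR), and their part in the Cd80 result was not tested. Without NCTD_IT replicate 18 they were at 2.53 and 2.75 with adjusted p of 0.105 and 0.126, and no gene was called in this comparison. The adjusted p of S100a8 by edgeR ran from 4.39e-46 to 0.986 over the alternatives, and DESeq2 gave no p for either gene. Leaving out any of the CTRL_IT tumors, PTX_IT replicate 13 (0.0583) or NCTD_IT replicate 17 (0.0568) also put it above 0.05. Cd80 did not pass the filter when only these groups were fitted, or when replicate 18, replicate 20 or MIX_IT replicate 22 was left out.

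In PTX_IT, Cd80 was at 1.68, 1.90 and 0.259 CPM, and in MIX_IT at 0.854, 3.13, 0.240 and 0.333 CPM. Both groups overlapped CTRL_IT, with log2 fold changes of 1.16 (SE 1.097, adjusted p = 0.865) and 1.04 (SE 1.00, adjusted p = 0.701). NCTD_IT was above PTX_IT by 1.501 (SE 1.03, adjusted p = 0.999) and MIX_IT against NCTD_IT was at -1.62 (SE 0.91, adjusted p = 0.818). Cd86, the second ligand of CTLA-4 and CD28, was at 0, 6.14, 3.30 and 3.43 CPM in CTRL_IT and at 9.63, 6.27, 1.03 and 14.1 CPM in NCTD_IT. It was at 8.97, 12.4 and 2.07 CPM in PTX_IT and at 2.56, 8.91, 8.65 and 3.49 CPM in MIX_IT. Its log2 fold change was 1.29 (SE 0.82, adjusted p = 0.374) in NCTD_IT and 1.25 (SE 0.87, adjusted p = 0.825) in PTX_IT, and the groups overlapped.

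Ido1 was near the limit of detection in most tumors. Its highest levels were 5.50 CPM (21 reads) in NCTD_IT replicate 20, 3.81 CPM (12 reads) in PTX_IT replicate 15 and 3.60 CPM (23 reads) in MIX_IT replicate 22. The other 3 MIX_IT tumors had 0 reads, which allows up to 0.640, 0.721 and 0.499 CPM. The other NCTD_IT tumors had 2, 1 and 0 reads, and the CTRL_IT tumors 0, 5, 3 and 3 reads. Its log2 fold change against CTRL_IT was 1.15 (SE 1.44, adjusted p = 0.680) in NCTD_IT and 1.35 (SE 1.54, adjusted p = 0.898) in PTX_IT. The median went the other way in NCTD_IT, at 0.314 CPM against 0.809 CPM in CTRL_IT. Without PTX_IT replicate 15 the fold change in PTX_IT was 0.24.

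**Figure D2:**
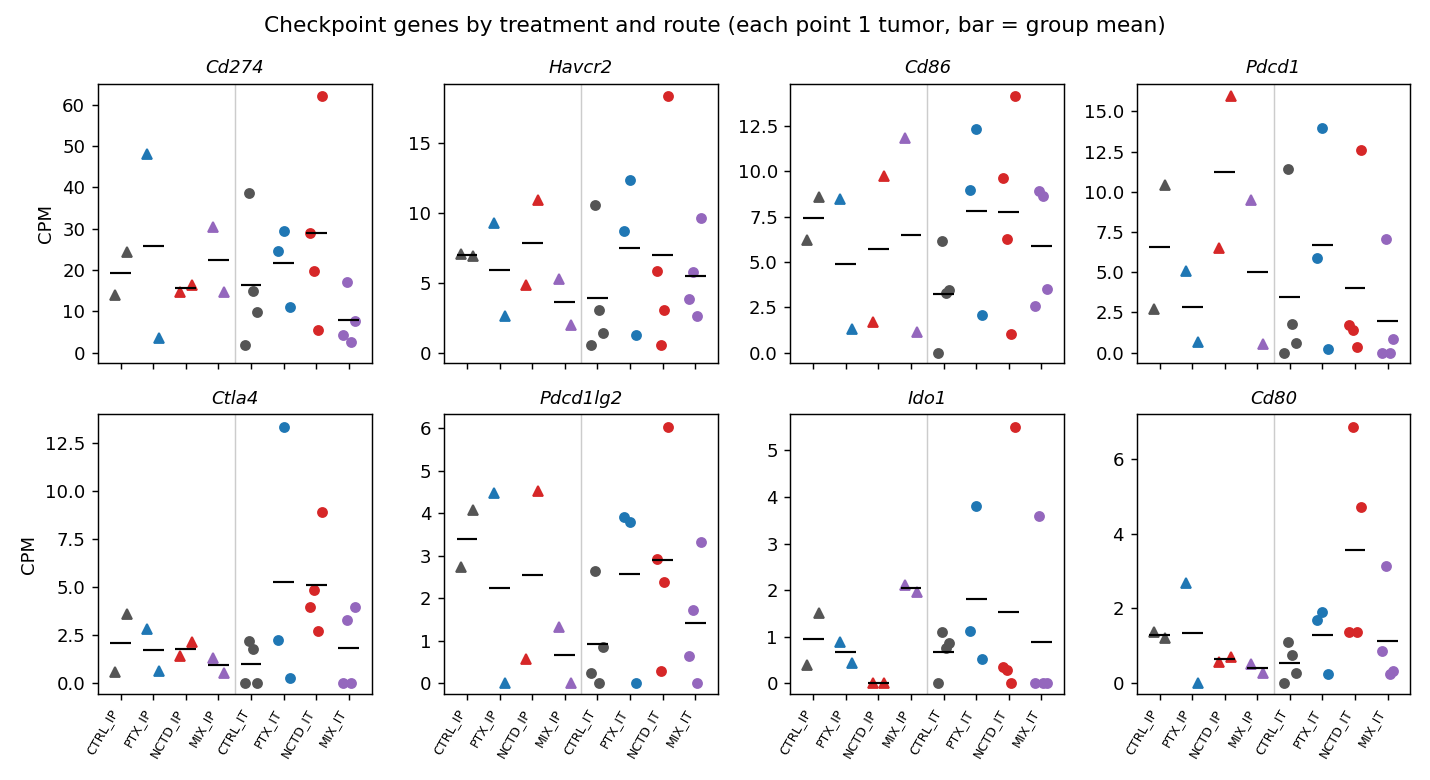
CPM of the 8 genes other than Lag3 and Tigit in the 8 groups, with 1 point per tumor (triangles for IP, circles for IT) and the group mean as a bar. Ctla4 and Cd80 are higher in all 4 NCTD_IT tumors than in all 4 CTRL_IT tumors, and each IT group spans low and high tumors for Pdcd1.

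To compare the genes as a group, the 8 members that passed the filter in the IT tumors were counted by direction. All 8 were higher in NCTD_IT than in CTRL_IT, with a median log2 fold change of 1.22 against 0.03 over all 12480 genes tested, and all 8 were higher in PTX_IT, with a median of 1.21 against 0.02. In MIX_IT 6 of 8 were higher, with a median of 0.54 against 0.01. All 8 were lower in MIX_IT than in NCTD_IT (median -1.004) and in PTX_IT (median -0.85), and NCTD_IT against PTX_IT split them 4 to 4. Single tumors moved these counts. Without NCTD_IT replicate 20, 4 of 6 members tested were higher in NCTD_IT than in CTRL_IT (median 0.52) and 3 of 6 were higher in MIX_IT than in NCTD_IT (median -0.20). Cd80 and Ido1 did not pass the filter in that fit, so that the sets of members compared differ. Because the filter took in these members through tumors where they were high, the counts of direction in the IT groups are not independent of it. Without PTX_IT replicate 15, 7 of 8 were higher in PTX_IT than in CTRL_IT (median 0.30) and 5 of 8 were higher in MIX_IT than in PTX_IT (median 0.13). These comparisons share their groups, and the members moved together between tumors, so that the counts of direction are not independent of each other. Of the members tested, 1 in NCTD_IT, 0 in PTX_IT and 0 in MIX_IT had an unadjusted p below 0.05 against CTRL_IT, where the shares of all genes were 21.6%, 6.35% and 13%. The share called was 1.37% in NCTD_IT, 0% in PTX_IT and 0% in MIX_IT.

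Separation of whole groups was counted as well. Ctla4 and Cd80 were the only 2 of 8 members whose NCTD_IT and CTRL_IT tumors did not overlap, beside 16.9% of all genes. Cd80 had only 0 to 5 reads in CTRL_IT. It passed the filter through tumors where it was high, NCTD_IT replicates 18 and 20 among them, so that its separation is not independent of the filter. None of the 8 was separated in PTX_IT or MIX_IT against CTRL_IT, beside 7.92% and 9.95%, nor in MIX_IT against NCTD_IT (2.96%), MIX_IT against PTX_IT (4.04%) or NCTD_IT against PTX_IT (4.50%). With an unadjusted p below 0.05 stood 1 member in MIX_IT against NCTD_IT (Cd274, background 6.02%, called 0.00801%), 0 in MIX_IT against PTX_IT (background 3.75%, called 0%) and 0 in NCTD_IT against PTX_IT (background 3.87%, called 0%).

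**Figure D3:**
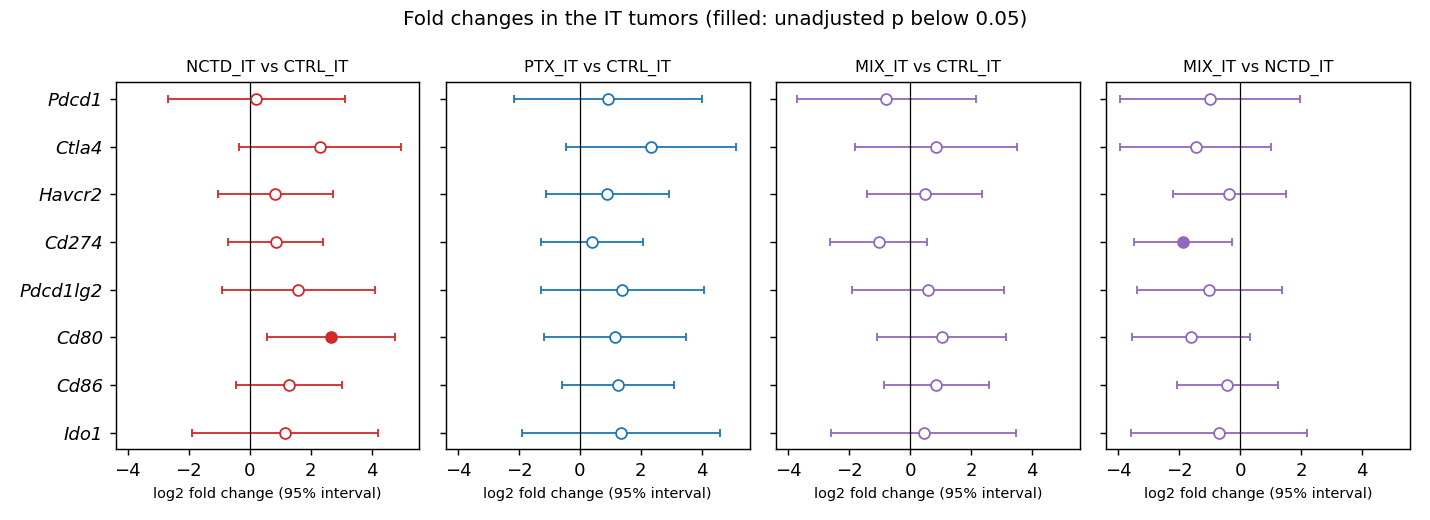
Log2 fold changes of 8 checkpoint genes with their 95% intervals from edgeR in 4 comparisons of IT groups, with filled points where the unadjusted p is below 0.05. All 8 points lie above 0 in NCTD_IT and PTX_IT and below 0 in MIX_IT against NCTD_IT, and only Cd80 (2.66) and Cd274 (-1.88) have intervals that leave out 0.

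To ask whether the combination differed from the sum of its drugs, the effects of NCTD_IT and PTX_IT were subtracted from that of MIX_IT on the log2 scale. All 8 members were below the sum, with a median of -2.17 against -0.01 over all genes, and 0 were called (0.0401% of all genes were, and 11.3% had an unadjusted p below 0.05). Cd80 and Ido1 passed the filter through tumors where they were high, NCTD_IT replicate 20 among them. This count and its median are therefore not independent of the filter. The combination minus the sum sets MIX_IT and CTRL_IT against NCTD_IT and PTX_IT, which is also the split by Xist and Ddx3y. The sex of the host and the drugs thus cannot be told apart in it. Ctla4 was the only member with an unadjusted p below 0.05, with a difference of -3.78 (SE 1.77, 95% interval -7.52 to -0.05, adjusted p = 0.438). Its adjusted p was between 0.0451 without the filter on low counts and 0.936 without PTX_IT replicate 15, where the difference was -1.74, and its unadjusted p was below 0.05 in 7 of 15 fits that left out 1 tumor. Without the filter, the quasi-dispersion used for Ctla4 was 1.06 where its own was 3.62. The other differences with an interval that held 0 were -2.78 for Cd80 (SE 1.43, adjusted p = 0.476), -2.39 for Pdcd1lg2 (SE 1.69, adjusted p = 0.605), -2.28 for Cd274 (SE 1.09, adjusted p = 0.445) and -2.06 for Ido1 (SE 2.06, adjusted p = 0.730). Pdcd1, Cd86 and Havcr2 were at -1.92, -1.68 and -1.26. For Cd274 the adjusted p was 2.55e-04 without the filter and between 0.242 and 0.883 under the other alternatives. The difference uses CTRL_IT with the opposite sign, and CTRL_IT replicate 9 had the lowest summed level of the 10 genes. Without that tumor the difference of Ctla4 was -3.39 (adjusted p = 0.645).

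By the IP route each group held 2 tumors, and 6 members passed the filter. Cd274 was at 14.0 and 24.3 CPM in CTRL_IP, 48.0 and 3.47 CPM in PTX_IP, 14.7 and 16.4 CPM in NCTD_IP, and 30.3 and 14.6 CPM in MIX_IP. The pair of PTX_IP tumors, one the highest and the other the lowest of the IP tumors, enclosed all others. Pdcd1 was at 2.73 and 10.4 CPM in CTRL_IP, 5.07 and 0.651 CPM in PTX_IP, 6.49 and 15.9 CPM in NCTD_IP, and 9.49 and 0.563 CPM in MIX_IP. Its log2 fold change in PTX_IP against CTRL_IP was -1.14 (SE 1.10, adjusted p = 0.950), and 0.13 without CTRL_IP replicate 2. Against CTRL_IP, 4 of 6 members were lower in NCTD_IP, 5 of 6 in PTX_IP and 5 of 6 in MIX_IP, with medians of -0.28, -0.39 and -0.66 on the log2 scale.

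In none of the IP comparisons was a member called or at an unadjusted p below 0.05 by edgeR, where the shares of all genes at that p were 3.59% in NCTD_IP, 5.30% in PTX_IP and 2.94% in MIX_IP and the share called was 0% in each. DESeq2 gave 1 member below that p, Ido1 in NCTD_IP. Ido1 had 0 reads in both NCTD_IP tumors, against 2 and 10 reads in CTRL_IP, 6 and 2 in PTX_IP, and 8 and 7 in MIX_IP. The 0 reads allow up to 0.847 and 0.713 CPM, and of the CTRL_IP tumors only replicate 2, at 1.51 CPM, lay above that limit. The lowest fold change was that of Pdcd1lg2 in MIX_IP, -2.29 (SE 1.59, adjusted p = 0.999), from 0 and 5 reads against 14 and 27, and Ctla4 in MIX_IP was at -1.15 (SE 1.08, adjusted p = 0.999), or at 0.67 without CTRL_IP replicate 2.

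When the 8 IP tumors were fitted with 1 term for each drug, 5 members were tested and 0 were called or had an unadjusted p below 0.05 by edgeR or DESeq2. Over all genes 2.90% had such a p for PTX and 2.47% for NCTD, and 0% were called for either. Pdcd1 had the lowest p for PTX, with a log2 fold change of -1.14 (SE 0.73, adjusted p = 0.999), and Pdcd1lg2 was at -1.05 (SE 0.95, adjusted p = 0.999). Between the routes, with the drugs adjusted for, 7 members were tested over the 23 tumors, and 0 were called or had an unadjusted p below 0.05, beside 0.398% and 14.2% of all genes. Their IT minus IP differences ran from -0.75 for Pdcd1 to 0.69 for Ctla4 on the log2 scale. The effect of each drug was then compared between the routes in a model of all 8 groups, and of 8 members tested 0 were called or had an unadjusted p below 0.05 for NCTD, PTX or MIX, where the lowest adjusted p was 0.473 (Cd80 for NCTD). Over all genes 0% were called for each, and 10.8%, 5.23% and 7.44% had such a p.

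To describe what the checkpoint genes moved with, each tumor was set beside its leukocyte markers. The 12 T cell markers, such as Cd3e, Cd8a and Trac, summed to between 0.257 and 153 CPM, and the 12 macrophage and monocyte markers, such as Adgre1, Csf1r and C1qa, to between 209 and 1750 CPM. The tumor with the lowest and the tumor with the highest summed checkpoint level, CTRL_IT replicate 9 and NCTD_IT replicate 20, were also the lowest and the highest in T cell markers. Within CTRL_IT, replicate 10 had the highest level of all 8 members and also the most T cell markers (46.9 CPM), while the other CTRL_IT tumors were between 0.257 and 13.2 CPM. Replicate 15 of PTX_IT led for 7 of 8 members with 96.7 CPM of T cell markers, replicate 20 of NCTD_IT for 7 of 8 with 153 CPM, and replicate 22 of MIX_IT for 5 of 8 with 73.3 CPM.

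The 7 members with a median of at least 3 reads were correlated with the mean log2 CPM of each list over the 23 tumors. With the T cell list, Pearson's r ran from 0.69 (Cd80) to 0.89 (Pdcd1) and Spearman's rho from 0.73 to 0.88. With the macrophage list, r ran from 0.73 (Cd80) to 0.86 (Pdcd1) and rho from 0.76 to 0.87. In this family of 14 relations all had a two-sided permutation p, adjusted by Benjamini-Hochberg, of at most 2.00e-04 for r and 1.10e-04 for rho, and the smallest p that 100000 permutations can give is 1.0e-05. The same relations were not computed over all genes, so that these counts do not set the checkpoint genes apart from other genes.

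The relations were also present within each route. In the 15 IT tumors r was between 0.74 and 0.91 with the T cell list and between 0.76 and 0.89 with the macrophage list, with adjusted permutation p of at most 0.00142. In the 8 IP tumors r was between 0.74 and 0.91 and between 0.74 and 0.88, with adjusted exact permutation p of at most 0.0346 for r, while rho passed for 12 of 14 relations. Left out as farthest from the median were CTRL_IT replicate 9 with NCTD_IT replicate 20 for the T cell list, and CTRL_IT replicate 9 with PTX_IT replicate 16 for the macrophage list. Then r was at least 0.58 and 0.68, and all 14 relations had an adjusted p below 0.05 by permutation. Since both lists rose and fell in the same tumors, T cells and macrophages cannot be told apart in these values.

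**Figure D4:**
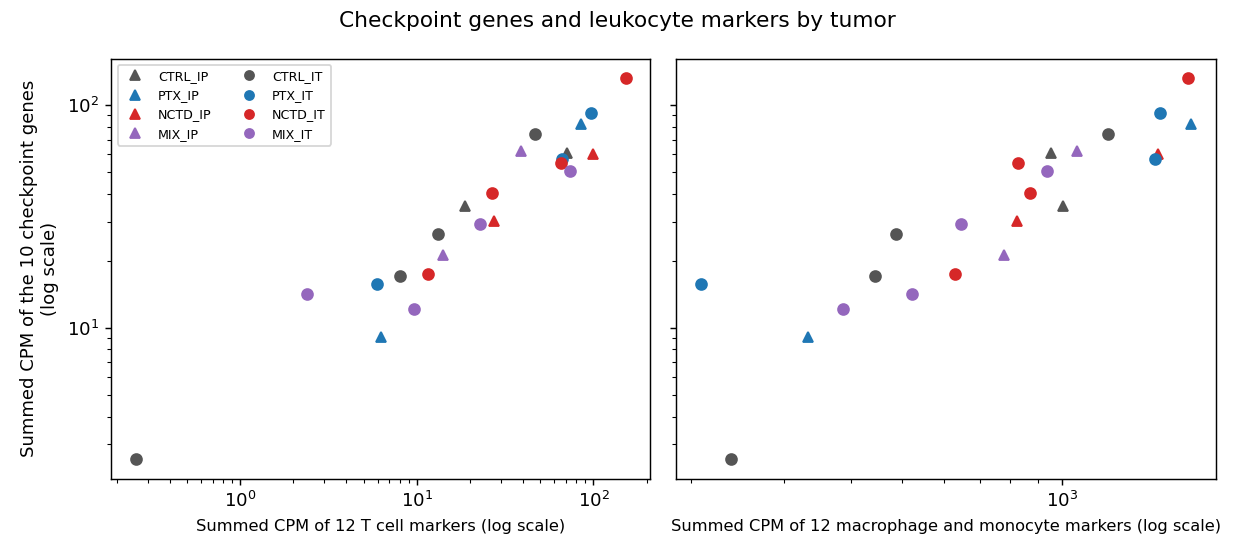
Summed CPM of the 10 checkpoint genes in each of the 23 tumors against the summed CPM of 12 T cell markers (left) and of 12 macrophage and monocyte markers (right), all on log scales, with colors for the drug and shapes for the route. CTRL_IT replicate 9 lies lowest, at 2.57 CPM, and NCTD_IT replicate 20 highest, at 133 CPM. The lowest tumors of PTX_IT, NCTD_IT and MIX_IT lie at 15.8, 17.4 and 12.2 CPM.

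The mean of the T cell and macrophage lists was also entered as a covariate, a fit chosen after the values were seen. In that fit Cd80 in NCTD_IT against CTRL_IT had a log2 fold change of 1.83 (adjusted p = 0.265) and no longer an unadjusted p below 0.05. Cd274 in MIX_IT against NCTD_IT was at -0.93 (adjusted p = 0.798), with an unadjusted p still below 0.05. With this covariate 0 members were called in any comparison by edgeR, and 7 results had an unadjusted p below 0.05, all of them of Pdcd1 or Cd274. Among them was Pdcd1 in NCTD_IT against CTRL_IT, which turned from 0.22 to -2.33 (adjusted p = 0.0887, and from 0.0887 to 1 over the alternatives). Of the 8 members 4 were then higher in NCTD_IT than in CTRL_IT (median 0.04) and 3 in PTX_IT (median -0.21), and 5 were higher in MIX_IT than in NCTD_IT (median 0.36).

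Entering Xist (log2 CPM) in the model in place of the marker lists turned several directions. Cd80 in NCTD_IT against CTRL_IT was then at -1.98 (adjusted p = 0.894) and Cd274 in MIX_IT against NCTD_IT at 1.03 (adjusted p = 0.880), and 0 members were called by edgeR in any comparison, with 1 result at an unadjusted p below 0.05 (Pdcd1 in NCTD_IT against CTRL_IT, -8.03). All 8 members were then lower in NCTD_IT and in PTX_IT than in CTRL_IT. Xist did not overlap between these groups, so that it cannot be told apart from the drug.

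The genes also varied with each other. The deviations of 8 members from their group means were correlated over the 23 tumors in all 28 pairs, with r between 0.43 (Cd80 with Havcr2) and 0.87 (Cd274 with Pdcd1) and a median of 0.68. The tumors share library depth and leukocyte content in these values, and no test was made. The SD of these deviations, on the log2 scale, was 1.87 for Pdcd1 and 1.34 for Cd274, where genes of like level had medians of 0.86 and 0.43. Cd80 was like other genes of its level, with 0.98 against 0.97.

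Over all 13394 other genes, those whose deviations were most like a checkpoint gene's were listed for the 4 members with a median of at least 10 reads. For Cd274 they were Itgal, the alpha chain of the leukocyte integrin LFA-1 (r = 0.96), H2-T23, a nonclassical MHC class I gene (r = 0.96), and the myeloid lectin gene Clec12a (r = 0.92). For Pdcd1 they were Spn, which encodes the leukocyte sialoprotein CD43 (r = 0.96), the transglutaminase gene Tgm2 (r = 0.96) and Il2rb, a chain of the interleukin 2 receptor (r = 0.95). For Havcr2 they were Ly6e (r = 0.92), the long noncoding RNA Gm5547 (r = 0.92) and the kinase gene Wnk1 (r = 0.91). For Cd86 they were Entpd1, which encodes the ectonucleotidase CD39 (r = 0.93), the long noncoding RNA Gm36043 (r = 0.92) and the TNF receptor gene Tnfrsf1b (r = 0.92).

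Genes that act with these checkpoints were taken from 7 lists of 73 genes, of which 49 were tested in the IT tumors. None was called in any of the 13 comparisons by edgeR. In NCTD_IT against CTRL_IT 9 were higher and 2 lower at an unadjusted p below 0.05, 11 of 49 beside 21.6% of all genes, and their median log2 fold change was 0.93. For the combination minus the sum of drugs 0 were higher and 9 lower at that p, beside 11.3% of all genes, with a median of -1.31. There too host sex and drug cannot be told apart. In PTX_IT 3 were higher and 0 lower, 3 of 49 beside 6.35% of all genes, with a median of 0.51. In MIX_IT 3 were higher and 2 lower, 5 of 49 beside 13% of all genes, with a median of 0.11.

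By list, the largest share at an unadjusted p below 0.05 in NCTD_IT was that of other inhibitory receptors and ligands, with 5 of 10 higher. Among them were Nt5e, which encodes the adenosine-forming enzyme CD73 (log2 fold change 1.84, SE 0.59, adjusted p = 0.0922), and Sirpa, the receptor of CD47 (0.67, SE 0.20, adjusted p = 0.0777). Of the 4 tested genes of the B7 and CD28 family, Vsir, which encodes the inhibitory ligand VISTA, was the one at that p (1.87, SE 0.63, adjusted p = 0.107). Of the 14 genes of the interferon gamma axis 2 were higher at that p, with Ifngr1, a chain of the interferon gamma receptor, at 1.38 (SE 0.39, adjusted p = 0.0640). Of the TNF family costimulators 1 of 6 was higher, of the nectin ligands and receptors around TIGIT 1 of 5 was lower, of the tryptophan pathway 1 of 5 was lower, and of the ligands of LAG-3 and TIM-3 0 of 5 had such a p. Chosen after their values were seen, the others at that p were Cd200, Cd47, Klrc1, Irf1 and Tnfrsf18, which were higher, and Nectin2 and Ahr, which were lower. In the same comparison the median log2 fold change was 1.85 over 9 T cell markers and 0.92 over 12 macrophage markers, with 2 and 4 of them higher at that p and 0 called. Of the dendritic cell markers 2 of 6 were higher at that p (median 1.81), with 0 called. Of the fibroblast markers 5 of 6 were higher at that p (median 1.97), of the endothelial markers 3 of 4 were higher (median 1.15), and of the erythroid markers 3 of 4 were lower (median -1.77), with 0 called. Of the 7 melanocyte and melanoma markers 2 were lower at that p (median -0.38) and 1 was called lower, beside 1.37% of all genes called. Their sum was 18696 to 26657 CPM in NCTD_IT and 26327 to 31850 CPM in CTRL_IT. In MIX_IT against CTRL_IT all 6 fibroblast markers tested were higher at that p (median 3.38), beside 13% of all genes. The fibroblast markers summed to 8519 CPM in MIX_IT replicate 23, against 495 to 1873 CPM in the other MIX_IT tumors and 108 to 373 CPM in CTRL_IT. The part of these cells in the values of the checkpoint genes was not tested.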

How the data were processed

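Libraries of 23 tumors were made by the authors with a 3′ mRNA kit. Per the submitters' processing notes, the authors used FastQC, Trimmomatic and STAR 2.7.11b with GRCm39, and they deposited raw counts of reads per gene, 1 column a tumor. Strand setting, multimapping reads and molecular identifiers are not given in the sources used here, so that genes that overlap can share reads. The deposited table also gives a gene length, which was used for CPM per kb.

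The main test was edgeR 4.0.16 under R 4.3.3 (TMM, filterByExpr at min.count 10 and min.total.count 15, quasi-likelihood test over all genes, Benjamini-Hochberg, threshold 0.05, two-sided) and DESeq2 1.42.0 as an alternative. Each route had its own fit of 4 groups. SE and 95% intervals came from the F statistic. Log2 CPM used a prior count of 2, and the floor was 3 counts. Members under the filter were tested by exact permutation. The fit was tested on simulated data. All tumors were grouped by their labels, and no replicates held identical values.

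All 10 members were named, with SE and adjusted p where the unadjusted p was below 0.05 or the fold change was past 1 in size on the log2 scale, otherwise by ranges. From each other list, called genes were named, or else the 2 with the smallest p in the IT comparisons. Cell type markers were mostly given as counts, including the melanoma marker called lower in NCTD_IT. Genes most like a member were the 3 with the highest r of deviations from group means. Adjusted p-values are over all genes tested in a comparison. The members and lists were chosen with earlier results of these data known. Alternatives were DESeq2, its size factors, no filter, only the 2 groups compared, Xist or leukocyte lists as a covariate, and leaving out each tumor in turn. Ido1, Cd86 and Lag3 had no 300-base promoter in the table used here.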

Additional observations from a re-analysis of the deposited data

Results flagged for a closer look

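In 6 of 26 sets of 4 tumors of a group, 1 tumor lay farther from the others than Dixon's 95% critical value allows, where chance flags about 1 in 20 for values spread normally. For Tigit in CTRL_IT and Ido1 in MIX_IT the other 3 tumors had 0 reads, so that any read would pass and this rate does not apply. For Pdcd1 these were CTRL_IT replicate 10 at 11.4 CPM, NCTD_IT replicate 20 at 12.6 CPM and MIX_IT replicate 22 at 7.04 CPM. For Ido1 they were NCTD_IT replicate 20 at 5.50 CPM and MIX_IT replicate 22 at 3.60 CPM, and for Tigit CTRL_IT replicate 10 at 0.658 CPM, which is 3 reads. All were the highest tumor of their group, and they were 3 tumors in all, so that the values are not independent. The same 3 tumors had the most T cell markers in their groups, with 46.9, 153 and 73.3 CPM. The part of these cells in the values was not tested.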

How the results depend on the processing

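No paired analysis was possible because the groups share no replicate numbers. Of 242 counts of members called under an alternative, 239 stayed at 0. Without the filter on low counts the count was 1 in MIX_IT against NCTD_IT (Cd274), 1 in MIX_IT against PTX_IT (Cd274, log2 fold change -1.43, adjusted p = 0.0133) and 2 in the combination minus the sum of drugs (Cd274 and Ctla4), and in this fit of the IT tumors the spread of each gene was set to the trend. All 14 relations with marker lists passed under each alternative by Pearson's r, and by Spearman's rho 12 of 14 passed within the IP tumors and 14 elsewhere, with no share over all genes computed. The count of members under the filter with p below 0.05 stayed at 0, but with so few tumors above 0 reads no p below 0.05 was possible. Of 614 values of the 33 fold changes printed with an SE, 570 kept their direction and their side of the threshold, 40 reversed and 4 were called.

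With Xist as a covariate 27 of the 33 reversed. Since Xist did not overlap between NCTD_IT or PTX_IT and CTRL_IT or MIX_IT, the IT values compare groups at levels of Xist that they do not share. They are therefore not a correction for the sex of the host. In NCTD_IT against CTRL_IT the log2 fold changes were -3.38 for Pdcd1lg2, -2.67 for Ctla4, -1.98 for Cd80, -2.19 for Cd86 and -4.43 for Ido1, and in PTX_IT they were -3.70, -2.68, -2.99, -1.96 and -3.40 in the same order. In MIX_IT against NCTD_IT they were 1.03 for Cd274, 4.72 for Pdcd1lg2, 3.98 for Ctla4 and 3.52 for Cd80, and against PTX_IT 1.09 for Cd274, 7.01 for Pdcd1 and 3.98 for Ctla4. For the combination minus the sum they were 2.84 for Cd274, 8.42 for Pdcd1lg2, 15.04 for Pdcd1, 6.65 for Ctla4, 7.22 for Havcr2, 6.51 for Cd80, 5.47 for Cd86 and 8.96 for Ido1. By the IP route they were 0.14 for Pdcd1 in PTX_IP and 0.68 for Ctla4 in MIX_IP. There CTRL_IP replicate 2 alone had reads of Xist, so that the covariate acts on that tumor only. Leaving that tumor out gave 0.13 and 0.67. None of these values was called, and the cause was not tested in the IT tumors. Over all 91 fold changes of members tested, those not printed with an SE included, 51 reversed with Xist, 37 with the marker lists, 1 without the filter and 0 by DESeq2, and leaving out 1 tumor reversed 85 of 1187 values.

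With the T cell and macrophage lists as a covariate, chosen after seeing the data, 10 of the 33 reversed. They were Ido1 in NCTD_IT (-1.68), Pdcd1lg2 (-0.20) and Ido1 (-0.68) in PTX_IT, Pdcd1lg2 in MIX_IT against NCTD_IT (0.0916), Ctla4 in MIX_IT against PTX_IT (0.0036), and Pdcd1lg2 (0.29), Pdcd1 (2.28), Havcr2 (1.43), Cd86 (0.26) and Ido1 (1.36) for the combination minus the sum. Leaving out 1 tumor reversed 3: Ctla4 in MIX_IT against PTX_IT ran from -2.15 to 0.58 (without PTX_IT replicate 15), and, without CTRL_IP replicate 2, Pdcd1 in PTX_IP (-3.29 to 0.13) and Ctla4 in MIX_IP (-1.90 to 0.67). The cause was not tested. Over all genes, NCTD_IT against CTRL_IT had 171 calls, 1190 without the filter, 913 by DESeq2, 946 with only the 2 groups, 0 with Xist and 0 to 843 without 1 tumor. The other counts above 0 were, with the filter, without it and by DESeq2, 1, 190 and 7 in MIX_IT against NCTD_IT, 5, 443 and 20 for the combination minus the sum, and 50, 400 and 287 between routes. Counts of 0 were at most 183 by DESeq2 and 364 without the filter. Members with an unadjusted p below 0.05 numbered 3 over the 13 comparisons, 4 by DESeq2, 21 without the filter, 1 with Xist and 7 with the marker lists. A count of 0 reads limits a level only to below 0.448 to 1.03 CPM, and with 2 tumors a group the IP intervals span several log2 units.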
